A study of Homo sapiens with 6 samples.

Results

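Translational efficiency was compared between 786-O cells labelled MT and 786-O cells labelled EV (empty vector). The 786-O line comes from a human clear cell kidney cancer and has no working VHL, the protein that marks hypoxia-inducible factors for breakdown. Translational efficiency here is the log2 ratio of ribosome footprints (Ribo-seq, mRNA fragments protected by ribosomes from nuclease) in MT over EV, minus the log2 ratio of mRNA (RNA-seq) in MT over EV. Members were all named genes at 10 or more in each of the 4 libraries, in FPKM (fragments per kilobase, scaled to sequencing depth) for RNA-seq and in TPM (transcript abundance scaled to a fixed total) for Ribo-seq. There were 4831 such genes of 19669 with 1 value per library. Of the genes left out, 12566 were below 10 in both assays, 1334 in Ribo-seq only and 938 in RNA-seq only. Among the 1334, 13 were at 0 TPM in both Ribo-seq libraries, and the cause was not tested. At the edge of the minimum, GALNT1 was kept with a lowest value of 10.001 and F11R was left out with a lowest value of 9.999.

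The series title names the MT construct as PHYHD1 without the segment 107 to 130, whereas the sample labels and the design text describe MT as overexpressing PHYHD1. The third label, WT, is PHYHD1-WT in the title and untreated cells in the design text. The column names follow the title. WT values are given beside the comparison and do not enter it. The promoter that drives the transgene, the delivery and whether each line is 1 clone are not stated in the labels. PHYHD1 is a member of the iron- and 2-oxoglutarate-dependent dioxygenases. It was at 109.5 FPKM and 905 TPM in MT, against 0.092 FPKM and 0 TPM in EV. It was thus below the minimum and is not among the genes compared. The deletion cannot be seen in values per gene. In WT, PHYHD1 was at 117.6 FPKM and 221.7 TPM. Its mRNA in WT was thus near MT and far from EV, as the title's name PHYHD1-WT implies. Each label had 1 library per assay, and the design text names 3 dishes per condition without saying whether they were pooled. No difference below therefore has a replicate error or a test, and each is a difference between libraries. Genes are called higher or lower at a 2-fold difference in translational efficiency (log2 of 1 or more, or -1 or less), which is a rule of size.

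The members held 88.6% of the summed FPKM in MT and 88.7% in EV, and 87.5% of the summed TPM in MT and 87.1% in EV. The cells carried the renal marker PAX8 (94.0 FPKM in MT and 88.5 FPKM in EV), and 11 of 15 renal carcinoma and tubule markers were at 1 or more in both labels and assays. Of the others, CA9 and LRP2 were at 0 in all 4 libraries. AQP1 (0.325 FPKM in MT and 0.294 FPKM in EV) and CUBN (0.038 FPKM in MT and 0.034 FPKM in EV) were nearly absent. All 10 haematopoietic and endothelial markers were at 0.18 or less. Read totals are unknown.

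Ribosome footprints count ribosomes on an mRNA, so for a given amount of mRNA more footprints usually go with more protein made per mRNA. Initiation factors, upstream open reading frames and tracts such as the 5′ terminal oligopyrimidine (TOP) tract of ribosomal protein mRNAs are known to set this efficiency, and slow or stalled ribosomes raise footprints too. Cycloheximide, which was added to the cells before lysis, blocks cytosolic but not mitochondrial ribosomes. Because mRNA enters the difference with a minus sign, a gene can be higher in efficiency through more footprints or through less mRNA with steady footprints. These were separated by the part of the difference each assay carried. Genes were footprint-led where footprints carried 75% or more, mRNA-led where they carried 25% or less, and mixed in between. This class rule by itself makes footprints differ less than mRNA in mRNA-led genes, and mRNA less than footprints in footprint-led genes. It also sets both assays in opposite directions in mixed genes.

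Of the 4831 genes, 32 passed the 2-fold rule, or 0.662% of the genes compared. MT was higher than EV for 23 (0.476%) and lower for 9 (0.186%). The footprints led 22 of them, 15 higher and 7 lower, among which were the cell polarity scaffold PALS1 and the kinase STK17B. The mRNA led 4, which were ASL, SNRPD3 and TRAPPC2L upward and PTCD3 downward. The other 6 were mixed, 5 higher and 1 lower. The median difference over all members was -0.00061 on the log2 scale, with 2413 genes above 0 and 2418 below.

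**Figure D1:**
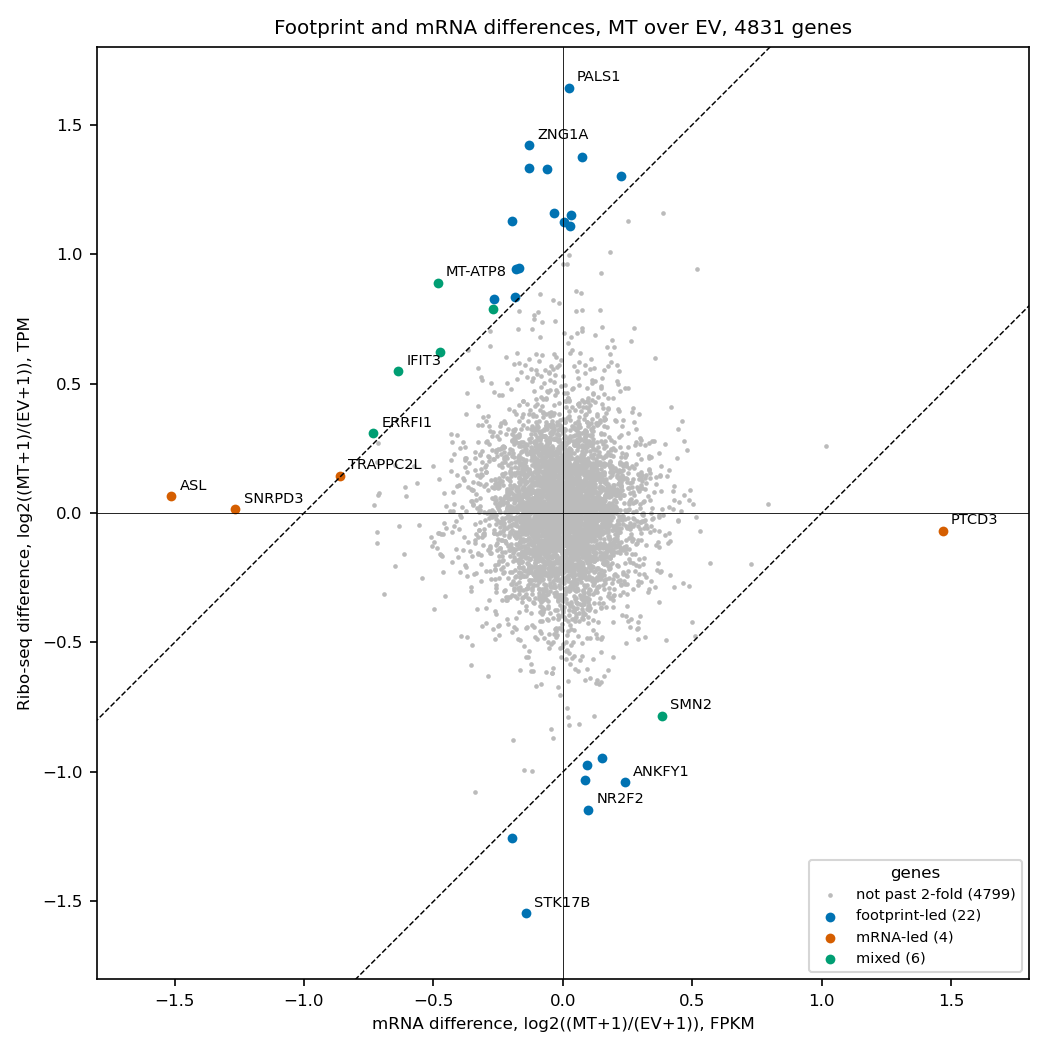
Each point is 1 of 4831 genes, with the mRNA difference between MT and EV on the x axis and the Ribo-seq difference on the y axis, both on the log2(value + 1) scale; the dashed lines mark a 2-fold difference in translational efficiency. By the class rule, the 22 footprint-led genes lie above and below the centre and the 4 mRNA-led genes lie left and right of it. The cloud has no slope (Pearson r = -0.016 across genes).

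Differences of mRNA and of footprints between MT and EV had a correlation near 0 across genes. Pearson's r was -0.016 over the 4831 genes, which are not independent replicates and come from 4 libraries, and it was 0.0029 over the 575 genes at 100 or more in all 4. Single-assay differences of 2-fold were few. Footprints were higher in MT for 14 members (0.29%) and lower for 6 (0.124%), and mRNA was higher for 2 (0.0414%) and lower for 2 (0.0414%). The robust SD across genes was 0.13 for the mRNA difference, 0.19 for the Ribo-seq difference and 0.24 for translational efficiency (log2).

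Genes with low values made up most of the 32. Of 1853 genes whose lowest value was between 10 and 20, 22 passed, or 1.19%. Passing genes numbered 7 of 1730 from 20 to 50, 2 of 673 from 50 to 100 and 1 of 575 (0.174%) at 100 or more. The robust SD of the efficiency difference was 0.31 in the lowest of these ranges and 0.18 in the highest, so the same log2 difference stands farther from the other genes at high levels. How much of this spread is counting error was not tested.

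**Figure D2:**
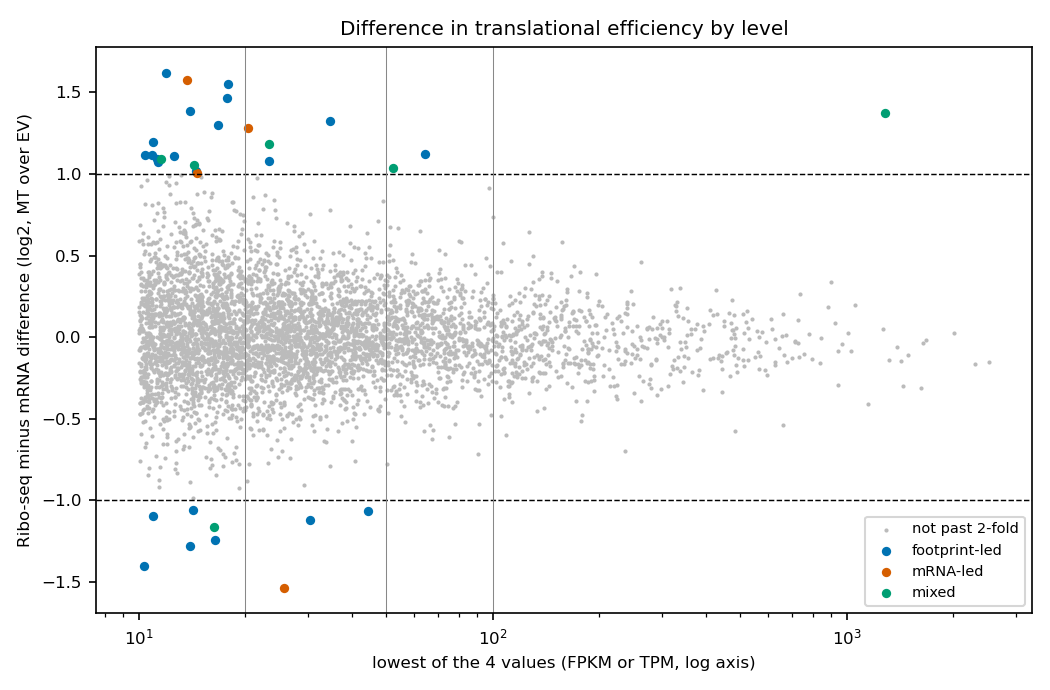
Each point is 1 of 4831 genes, with the lowest of its 4 values (FPKM or TPM, log axis) on the x axis and the difference in translational efficiency between MT and EV (log2) on the y axis; dashed lines mark 2-fold and grey lines mark 20, 50 and 100. The spread narrows to the right, and MT-ATP8 is the single gene past the rule at 100 or more.

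The annotated transcription starts were read for a TOP-like beginning, that is C as the first base followed by 4 bases that are each C or T, on the gene's strand. Starts are from RefSeq (GRCh38.p14), matched by symbol for 4061 of the 4831 members; a start used in these cells may differ. Sequences of 10 bases before and 15 from the start are shown for the mRNA-led genes with the largest differences, for the leading footprint-led gene in each direction, for NR2F2 and for 2 mRNAs with a known TOP tract, with the first 5 bases of the transcript in capitals.
PTCD3: catgctctgcAGAGAaatcaaagat
ASL: agccctggccAGTGGcgggcgcgac
SNRPD3: aaattgtgacGGGAAgtcctggccc
PALS1: gagtttctggATTCTttatccggaa
STK17B: tgcagttttcAAACCgcgactgcaa
NR2F2: cctctcatttCTCCTtccctcgtcc
RPS6: gaagttggccCTCTTttccgtggcg
EEF1A1: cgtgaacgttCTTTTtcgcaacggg

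In GRCh38.p14 these windows are chr2:86106225-86106249 (PTCD3), chr7:66075809-66075833 (ASL), chr22:24555640-24555664 (SNRPD3), chr14:67241425-67241449 (PALS1) and chr15:96332555-96332579 (NR2F2) on the plus strand, and chr2:196171564-196171588 (STK17B), chr9:19380222-19380246 (RPS6) and chr6:73521018-73521042 (EEF1A1) on the minus strand. Of the 8 genes shown, RPS6, EEF1A1 and NR2F2 begin with the tract. It was found at the start of 278 of the 4061 members (6.85%), of 43 of 63 ribosomal protein members (68.3%) and of 4.04% of all 27305 promoters in the table. None of the 19 higher genes with a start in the table had it, and NR2F2 did of the 6 lower ones. The median efficiency difference was -0.022 for members with the tract and -0.0025 for those without. A match describes the letters only.

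By the class rule, the 4 mRNA-led genes had mRNA that differed between MT and EV and footprints that did not follow. ASL, the argininosuccinate lyase of arginine synthesis and the urea cycle, was at 13.7 FPKM in MT, 13.2 FPKM in WT and 40.9 FPKM in EV. Its footprints were at 34.9 TPM in MT, 26.7 TPM in WT and 33.3 TPM in EV. The mRNA in MT was thus 0.335 times that in EV with 1.05 times the footprints, and the efficiency difference was 1.58 (log2).

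SNRPD3, a core Sm protein of the spliceosomal small nuclear ribonucleoproteins, showed the flattest footprints of the group. It had 20.3 FPKM in MT, 21.6 FPKM in WT and 50.1 FPKM in EV, and 202.7 TPM in MT, 204.6 TPM in WT and 200.4 TPM in EV. All 3 Ribo-seq libraries lay close together while EV stood alone in mRNA, which gave a difference of 1.28 between MT and EV. TRAPPC2L, a subunit of the TRAPP tethering complexes of membrane traffic, was just past the rule at 1.01, with 14.6 FPKM in MT, 15.2 FPKM in WT and 27.3 FPKM in EV, and with 158 TPM in MT, 136 TPM in WT and 143 TPM in EV. The annotated spans of SNRPD3 and TRAPPC2L overlap those of GUCD1 and GALNS, and without a stated strand setting reads of overlapping genes cannot be told apart; GUCD1 mRNA was at 32.8 FPKM in MT and 28.8 FPKM in EV, and GALNS mRNA at 12.9 FPKM in MT and 13.2 FPKM in EV.

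PTCD3, which belongs to the small subunit of the mitochondrial ribosome, had the lowest efficiency difference of all members (-1.53). Its mRNA was at 90.0 FPKM in MT, 113 FPKM in WT and 31.9 FPKM in EV, and its footprints at 25.7 TPM in MT, 29.9 TPM in WT and 27.0 TPM in EV. MT had 2.82 times the mRNA of EV and 0.952 times the footprints. In all 4 mRNA-led genes the RNA-seq library labelled WT was nearer to MT than to EV, so each of these differences is one in which the EV RNA-seq library stands apart from both others.

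**Figure D3:**
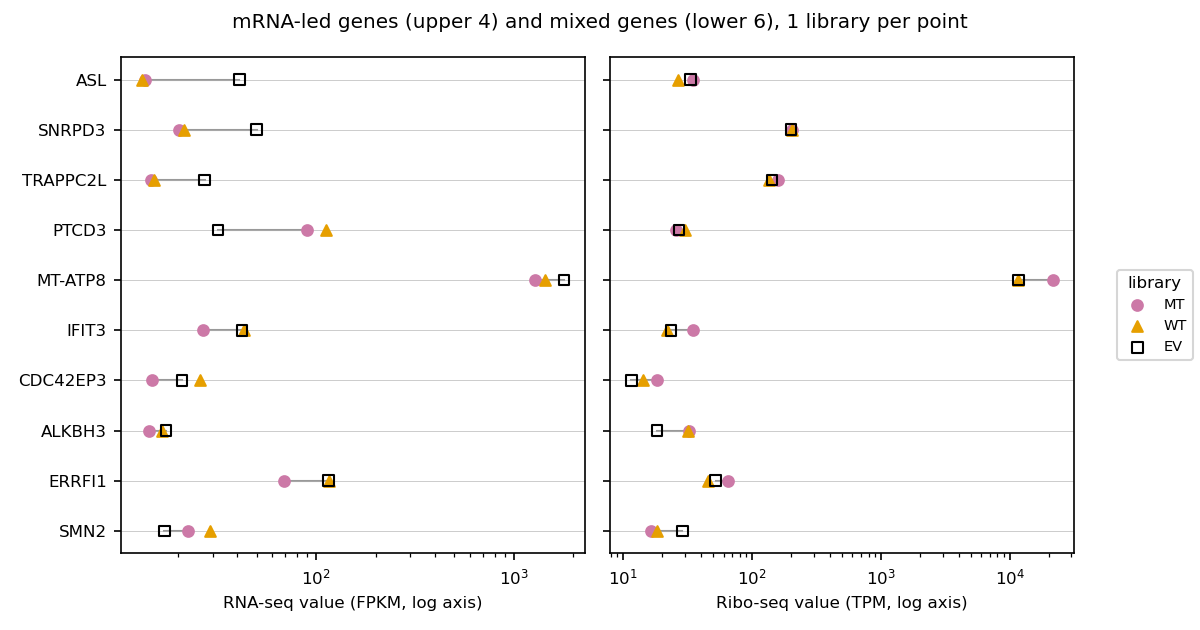
RNA-seq values in FPKM on the left and Ribo-seq values in TPM on the right, both on log axes, for the 4 mRNA-led genes (ASL to PTCD3) and the 6 mixed genes (MT-ATP8 to SMN2); each symbol is 1 library labelled MT, WT or EV, and the grey line joins MT and EV. In the upper 4 rows MT and WT lie together in mRNA, away from EV, and the Ribo-seq symbols of MT and EV lie within 1.11 times of each other.

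At a lower limit of 1.5-fold, chosen after seeing the data, 137 members (2.84%) were higher in efficiency and 81 (1.68%) lower. Each assay was then taken on its own. The mRNA was higher in MT for 4 members (0.0828% of all) and lower for 19 (0.393%), and none of these 23 reached 1.5-fold in footprints in the same direction. The 19 with lower mRNA had a median mRNA difference of -0.71 and a median Ribo-seq difference of 0.066 (log2), with footprints below EV in 6. The other way round, footprints were higher for 74 members (1.53%) and lower for 44 (0.911%), again with 0 of 118 past 1.5-fold in mRNA in the same direction. At shares this small, unrelated assays would also give few or no such genes. The absence of overlap therefore does not show that the assays were separated.

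Genes of stress and interferon responses were among the 19 with lower mRNA; they and the genes of the next sentences were chosen after their values were seen. DDIT4, a stress-induced inhibitor of mTORC1, was at 97.6 FPKM in MT and 161 FPKM in EV with 299 TPM in MT and 261 TPM in EV, a difference in efficiency of 0.91. PSAT1, the aminotransferase of serine synthesis, was at 127 FPKM in MT and 209 FPKM in EV, with 211 TPM in MT and 222 TPM in EV, a difference of 0.65. In both genes mRNA was lower in MT while footprints in MT were 0.95 to 1.15 times those in EV.

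IFIT2, an interferon-induced RNA-binding protein, had 11.7 FPKM in MT and 19.8 FPKM in EV, with 15.99 TPM in MT and 15.1 TPM in EV. TNFSF10, the death ligand TRAIL, had 51.2 FPKM in MT and 78.6 FPKM in EV, with 410.2 TPM in MT and 392 TPM in EV. ISG15, an interferon-induced ubiquitin-like protein, had 27.9 FPKM in MT and 44.4 FPKM in EV, with 167 TPM in MT and 192 TPM in EV, so its footprints were lower too, by less than its mRNA. The 4 genes with higher mRNA were PTCD3, DIS3L, an exosome-linked nuclease gene, POLR2M and DNAJB14. DIS3L was at 24.4 FPKM in MT and 11.6 FPKM in EV with 12.3 TPM in MT and 10.1 TPM in EV, and at -0.76 it did not pass the 2-fold rule for efficiency. The library labelled WT was nearer to MT than to EV in mRNA for 10 of the 23 genes and nearer to EV for 13.

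Among abundant mRNAs, at 100 or more in all 4 libraries, the 6 with the largest mRNA differences included MT-ATP8 and PSAT1. The others were SKA2 (158 FPKM in MT and 109 FPKM in EV), a kinetochore protein, JPT1 (148 FPKM in MT and 107 FPKM in EV), the nuclear import adaptor KPNA2 (368 FPKM in MT and 268 FPKM in EV) and SCD (105.5 FPKM in MT and 147 FPKM in EV), the stearoyl-CoA desaturase. Footprints were close in MT and EV for SKA2 (254 TPM in MT and 267 TPM in EV), KPNA2 (134 TPM in MT and 134 TPM in EV) and SCD (120.1 TPM in MT and 127 TPM in EV). JPT1 differed in the same direction in both, with 558 TPM in MT and 461 TPM in EV.

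Among the 22 footprint-led genes, for which the class rule asks for a small mRNA part, mRNA in MT was between 0.82 (MSRB3) and 1.19 (ANKFY1) times that in EV. PALS1, a scaffold of the Crumbs polarity complex at tight junctions, had the highest efficiency difference of all members (1.62). Its mRNA was at 12.1 FPKM in MT, 12.02 FPKM in WT and 11.9 FPKM in EV, and its footprints at 87.0 TPM in MT, 23.2 TPM in WT and 27.2 TPM in EV. The 3 mRNA values lay close together and MT alone was high in footprints, at 3.20 times EV. GPHN, whose annotated span overlaps PALS1, was at 8.45 TPM in MT and 10.9 TPM in EV.

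Further genes had MT footprints apart from both other libraries. SPATS2 was at 48.1 TPM in MT, 13.1 TPM in WT and 18.5 TPM in EV, NRIP1, a corepressor of nuclear receptors, was at 36.5 TPM in MT, 14.2 TPM in WT and 13.9 TPM in EV, and FRMD4B, a FERM-domain scaffold, was at 45.2 TPM in MT, 16.6 TPM in WT and 16.8 TPM in EV. Their efficiency differences were 1.46, 1.39 and 1.30, and mRNA in MT was 0.91, 0.957 and 1.06 times that in EV. CD59, a glycosylphosphatidylinositol-anchored inhibitor of complement, had the most footprints and mRNA in MT and in EV of the footprint-led genes that were higher in MT, with 125 TPM in MT, 75.5 TPM in WT and 64.4 TPM in EV and with 78.5 FPKM in MT, 97.0 FPKM in WT and 89.2 FPKM in EV.

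In other genes WT lay with MT, and EV was the low library. MBTPS1, the site-1 protease that cleaves SREBP and ATF6 in the Golgi, was at 100.3 TPM in MT, 83.5 TPM in WT and 45.3 TPM in EV, with 34.7 FPKM in MT, 35.6 FPKM in WT and 39.9 FPKM in EV. ATF2, a leucine zipper transcription factor, was at 26.6 TPM in MT, 26.01 TPM in WT and 14.5 TPM in EV. TMEM68 was at 58.1 TPM in MT, 53.9 TPM in WT and 26.4 TPM in EV. For these 3 genes the difference between MT and EV is also one between WT and EV, with efficiency differences of WT over EV of 1.03 for MBTPS1, 1.18 for ATF2 and 1.05 for TMEM68. PIGP, a subunit of the enzyme that starts synthesis of the glycosylphosphatidylinositol anchor, had 39.7 TPM in MT, 30.9 TPM in WT and 20.2 TPM in EV, with WT nearer to MT and an efficiency difference between MT and EV of 1.11.

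The remaining footprint-led genes above EV were at low footprint values in EV, as were some genes named before. NRIP1 (13.9 TPM in EV), ATF2 (14.5 TPM in EV), FRMD4B (16.8 TPM in EV) and SPATS2 (18.5 TPM in EV) lay in this range or just above it. FGFR1, a receptor of fibroblast growth factors, was at 23.8 TPM in MT, 36.0 TPM in WT and 10.4 TPM in EV, and the zinc finger gene ZNF544 at 34.7 TPM in MT, 36.5 TPM in WT and 15.1 TPM in EV. ZNF638 (25.6 TPM in MT, 17.1 TPM in WT and 10.9 TPM in EV) and the deubiquitinase gene USP13 (29.3 TPM in MT, 26.5 TPM in WT and 11.3 TPM in EV) had MT above WT and WT above EV, as did MSRB3, a methionine sulfoxide reductase, at 22.6 TPM in MT, 15.7 TPM in WT and 12.3 TPM in EV. Of the 15 genes, WT footprints were nearer to MT for 8 and nearer to EV for 7.

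The 15th, ZNG1A, belongs to a family of near-identical zinc chaperone genes whose reads can be split between copies. ZNG1A was at 49.6 TPM in MT and 17.9 TPM in EV, a difference in efficiency of 1.55, while its copy ZNG1E was at 12.7 TPM in MT and 27.9 TPM in EV. Summed over the 5 copies in the table, footprints were at 369 TPM in MT and 358 TPM in EV and mRNA at 66.3 FPKM in MT and 76.8 FPKM in EV. The sum differed by 0.25 (log2), far inside the rule, so the value of ZNG1A alone is uncertain.

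STK17B, a serine/threonine kinase linked to apoptosis, led the 7 footprint-led genes that were lower in MT. It was at 10.9 TPM in MT, 33.6 TPM in WT and 33.8 TPM in EV, with 10.3 FPKM in MT, 11.7 FPKM in WT and 11.5 FPKM in EV. MT was the low library, at 0.323 times EV in footprints, and the efficiency difference was -1.40. NR2F2, the nuclear receptor COUP-TFII, had 16.4 TPM in MT, 25.6 TPM in WT and 37.4 TPM in EV.

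ANKFY1, an endosomal Rab5 effector, was at 16.2 TPM in MT, 16.2 TPM in WT and 34.4 TPM in EV, so WT and MT gave the same value. The sulfate transporter gene SLC26A2 (19.3 TPM in MT, 21.97 TPM in WT and 38.1 TPM in EV) and PABPC4, a cytoplasmic poly(A)-binding protein (44.2 TPM in MT, 57.2 TPM in WT and 87.7 TPM in EV), also had WT nearer to MT. PABPC4 was the most abundant in mRNA of the lower genes, with 118 FPKM in MT, 135 FPKM in WT and 111 FPKM in EV. ITCH, an E3 ubiquitin ligase, had no such pattern. It was at 30.4 TPM in MT, 131 TPM in WT and 63.3 TPM in EV, with MT low, WT high and EV between them at nearly equal mRNA (40.5 FPKM in MT, 39.5 FPKM in WT and 38.1 FPKM in EV).

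**Figure D4:**
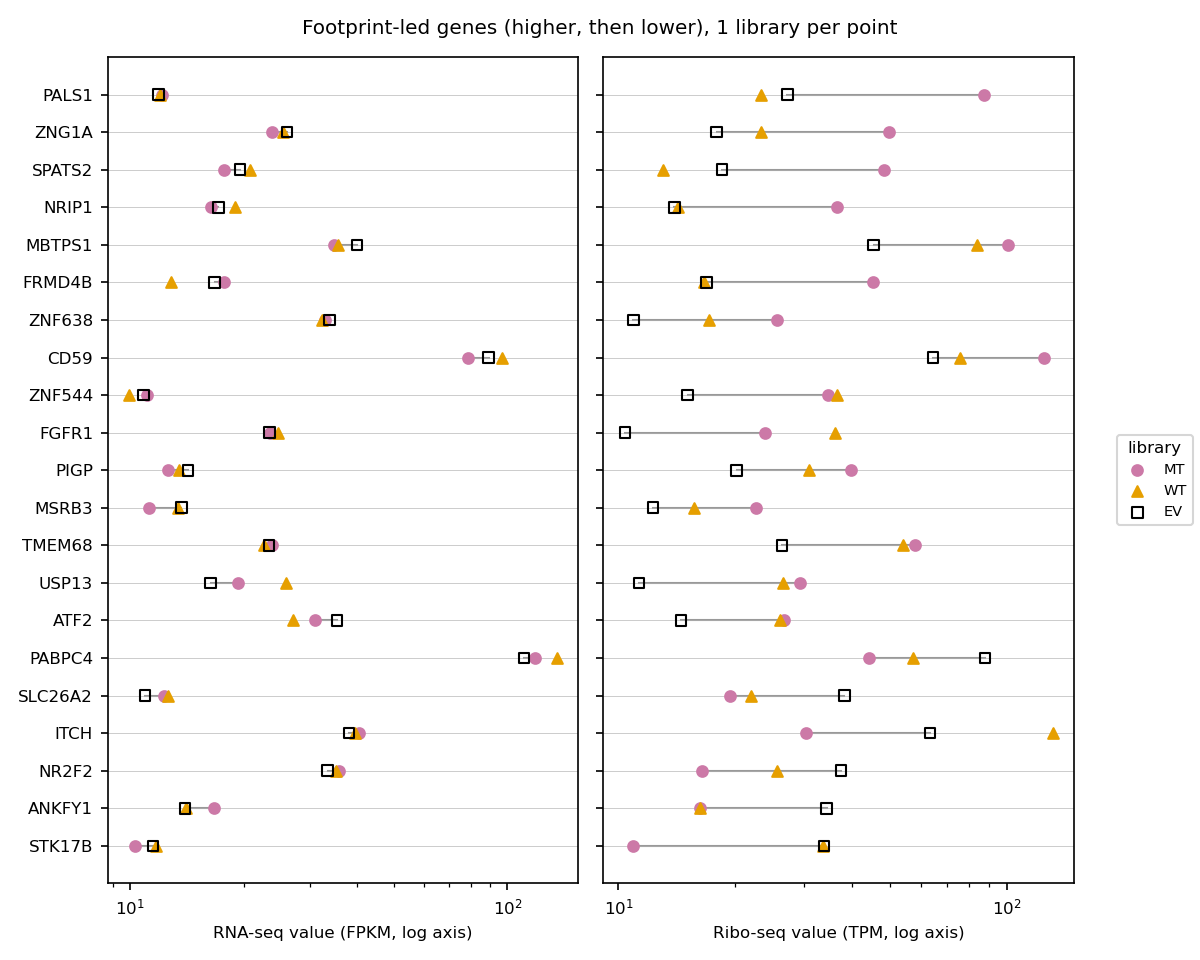
RNA-seq values in FPKM on the left and Ribo-seq values in TPM on the right, both on log axes, for the footprint-led genes named in the text, ordered by their efficiency difference; each symbol is 1 library labelled MT, WT or EV, and the grey line joins MT and EV. By the class rule, the mRNA symbols of MT and EV lie closer together than their Ribo-seq symbols in each row. The Ribo-seq symbols of MT lie right of EV in the first 15 rows and left of EV in the rows from PABPC4 down.

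The mixed genes combined both assays in opposite directions, as the class rule requires. MT-ATP8, a mitochondrially encoded subunit of ATP synthase, was at 1284 FPKM in MT, 1447 FPKM in WT and 1796 FPKM in EV, and at 21537 TPM in MT, 11487 TPM in WT and 11621 TPM in EV. Its reading frame overlaps that of MT-ATP6 on 1 mRNA, so reads can be counted to either; MT-ATP6 was at 9623 FPKM in MT and 11306 FPKM in EV, and at 184 TPM in MT and 166 TPM in EV. The 2 genes summed differed by 1.15 in efficiency (log2). In MT, MT-ATP8 held 21537 of the summed 21721 TPM, while MT-ATP6 held 9623 of the summed 10907 FPKM. The sum thus sets footprints of MT-ATP8 against mRNA of MT-ATP6 and cannot show whether reads were shared. MT-ATP6 alone was at 0.38.

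IFIT3, an interferon-induced gene, was at 26.7 FPKM in MT, 43.1 FPKM in WT and 42.1 FPKM in EV, and at 34.7 TPM in MT, 21.97 TPM in WT and 23.4 TPM in EV. The annotated span of IFIT3 overlaps LIPA, a lysosomal lipase gene at 45.6 FPKM in MT and 49.1 FPKM in EV. ERRFI1, an inhibitor of the EGF receptor, was at 69.2 FPKM in MT, 116 FPKM in WT and 116 FPKM in EV, and at 64.7 TPM in MT, 45.2 TPM in WT and 52.1 TPM in EV. In both genes MT was low in mRNA and high in footprints against both other labels. CDC42EP3, an effector of the small GTPase CDC42, had the same pattern (14.8 FPKM in MT, 25.9 FPKM in WT and 20.97 FPKM in EV; 18.3 TPM in MT, 14.3 TPM in WT and 11.6 TPM in EV).

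ALKBH3 and HIF1AN belong, like PHYHD1, to the 2-oxoglutarate-dependent dioxygenases. ALKBH3, which removes methyl groups from alkylated nucleic acids, was at 14.3 FPKM in MT, 16.5 FPKM in WT and 17.4 FPKM in EV, and at 32.3 TPM in MT, 31.8 TPM in WT and 18.3 TPM in EV, a difference of 1.06. HIF1AN, the asparaginyl hydroxylase of hypoxia-inducible factors, was just outside the rule at 0.996, with 13.1 FPKM in MT and 17.2 FPKM in EV and 32.3 TPM in MT and 20.5 TPM in EV. Over the family, 20 of 55 genes were members, 14 of these were above 0 and the median was 0.080; 1 of 20 passed the rule upward, where 0.476% of all members did.

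SMN2, the sole mixed gene that was lower in MT, is a near-identical copy of SMN1, the gene of the survival motor neuron protein. SMN2 was at 16.3 TPM in MT and 28.7 TPM in EV, while SMN1 was at 15.1 TPM in MT and 5.93 TPM in EV. Their sums were 31.4 TPM in MT and 34.7 TPM in EV at 42.8 FPKM in MT and 42.9 FPKM in EV. The summed difference in efficiency was -0.14, so the value for SMN2 alone is uncertain.

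Just inside the 2-fold limits lay TRAPPC2L (1.01), ATF2 (1.02) and ERRFI1 (1.04), and PABPC4 (-1.07) and SLC26A2 (-1.10). Just outside lay HIF1AN (0.996), the mitotic phosphatase gene CDC25C (0.99) and NUDT9 (0.98), and CREB5 (-0.99), DNAJB14 (-0.92) and PRR5 (-0.92). With the library labelled WT in place of EV, which shares the MT libraries, 20 of the 23 higher genes and 7 of the 9 lower ones had the same sign, and 9 and 2 of them passed the rule. In WT over EV, which shares the EV libraries, 17 of 23 and 8 of 9 had the same sign, and 7 and 3 passed. By the same rule 39 of 4825 genes (0.808%) passed in WT over EV, 18 higher and 21 lower, and 61 of 4837 (1.26%) in MT over WT.

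Group medians all lay inside the 2-fold limits, but a median over many genes cannot be compared with single genes picked by size. Counts per group are set against the members as a whole. Of these, 49.9% were above 0 in efficiency, 50.9% in mRNA and 51.4% in footprints. Because mRNA is subtracted, a group with shifted mRNA and footprints near 0 lies on the other side of 0 in efficiency by calculation. Target genes of ATF4, which drives transcription when eIF2 is phosphorylated under stress, had 23 members of 34, of which 22 were below 0 in mRNA, 15 below 0 in footprints and 19 above 0 in efficiency. Their median was -0.23 in mRNA, -0.042 in footprints and 0.20 in efficiency (log2). SLC7A5, a large neutral amino acid transporter and the member with the most mRNA, was at 285 FPKM in MT and 341 FPKM in EV, with 169 TPM in MT and 187 TPM in EV. No member passed the 2-fold rule.

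Cytosolic aminoacyl-tRNA synthetases, which charge tRNAs and several of which are also ATF4 targets, had a median efficiency difference of 0.12 with 16 of 22 members above 0. GARS1 mRNA was at 195 FPKM in MT and 258 FPKM in EV and its footprints at 226 TPM in MT and 227 TPM in EV; TARS1 was at 210.0 FPKM in MT and 246 FPKM in EV, with 239 TPM in MT and 253 TPM in EV. The group median was -0.17 in mRNA and -0.052 in footprints.

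Interferon-stimulated genes had 20 members of 56 and a median of 0.18 in efficiency, -0.26 in mRNA and -0.050 in footprints, with 18 of 20 below 0 in mRNA and 16 above 0 in efficiency; IFIT3 passed the rule. Targets of hypoxia-inducible factors, which are active without hypoxia in cells that lack VHL, had 23 members of 36 with a median of 0.17 in efficiency, -0.13 in mRNA and 0.045 in footprints, and 16 above 0. The members with the most mRNA were not above 0, as the glycolytic enzyme genes ENO1 (1573 FPKM in MT and 1441 FPKM in EV; 1676 TPM in MT and 1889 TPM in EV) and LDHA (1231 FPKM in MT and 1228 FPKM in EV; 847 TPM in MT and 848 TPM in EV) were at -0.30 and -0.0056. VEGFA was at 0.18 and CCND1 at 0.40. Antigen presentation genes had 8 of 13 members above 0 and a median of 0.051.

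Mitochondrially encoded genes had the highest group median (0.30), with 12 of 13 above 0, and the group was lower in mRNA (-0.23) and higher in footprints (0.14). MT-ND1 was the member below 0 (-0.33). Their share of the summed TPM was 2.39% in MT and 1.38% in EV, of which MT-ATP8 held most; without it the share was 0.237% in MT and 0.219% in EV. Their share of the summed FPKM was 15.4% in MT and 16.8% in EV. For nuclear-encoded subunits of oxidative phosphorylation the median was 0.041 and 39 of 71 lay above 0. Mitochondrial ribosomal proteins, the group of PTCD3, stood at a median of -0.036 with 43 of 76 below 0.

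**Figure D5:**
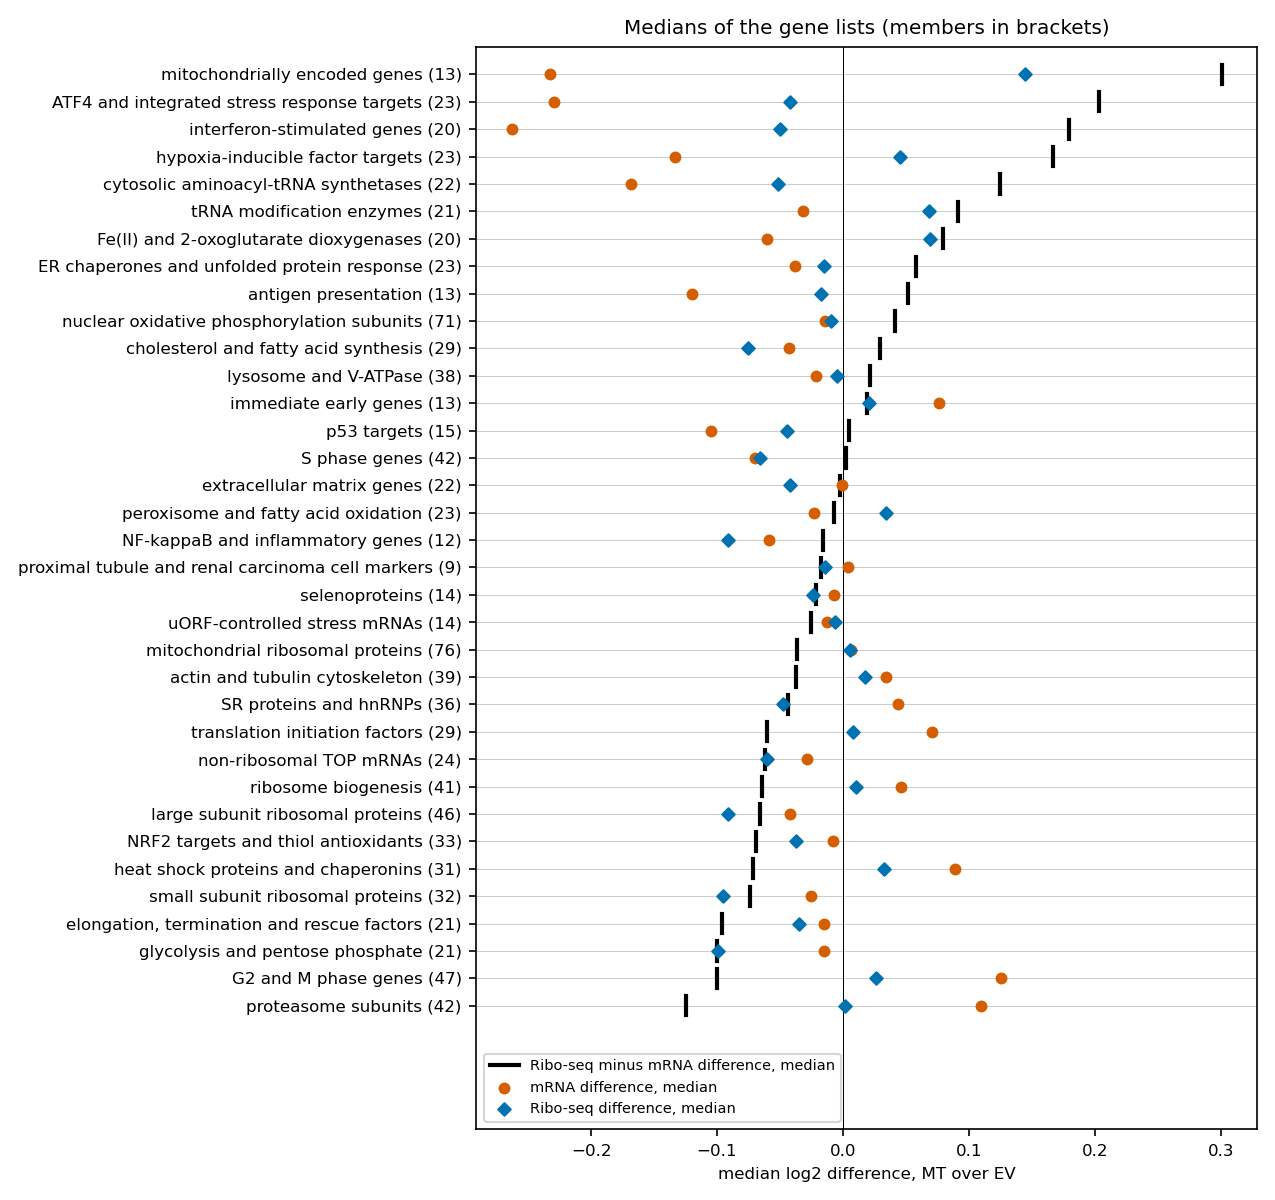
Medians over the members of each gene group (number of members in brackets) of the mRNA difference (orange circles), the Ribo-seq difference (blue diamonds) and the difference in translational efficiency (black bars), all log2 of MT over EV. In the first 5 rows the mRNA medians are the lowest of the plot, and for G2 and M phase genes and proteasome subunits at the bottom they are the highest while footprints lie near 0.

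Groups below 0 in efficiency included those with higher mRNA in MT, which the subtraction of mRNA gives where footprints lie near 0. Proteasome subunits and assembly factors had a median of 0.11 in mRNA, 0.0012 in footprints and -0.12 in efficiency, with 32 of 42 below 0; PSMA7 was at 219.5 FPKM in MT and 189 FPKM in EV, with 567.5 TPM in MT and 590.0 TPM in EV. G2 and M phase genes had 40 of 47 members above 0 in mRNA (median 0.13) and 33 below 0 in efficiency (median -0.10). The efficiency median of these genes was 0.23 in WT over EV and -0.24 in MT over WT. PRC1 and TPX2, which had the most mRNA of them in EV, were at -0.063 and 0.11. Heat shock proteins and chaperonins had 26 of 31 members above 0 in mRNA and a median of -0.071 in efficiency, and HSPA8 was at 777 FPKM in MT and 676 FPKM in EV with 447 TPM in MT and 445 TPM in EV.

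The medians of 6 groups of the translation machinery lay slightly below 0, while that of the aminoacyl-tRNA synthetases lay above 0. Large subunit ribosomal proteins had a median of -0.066 (29 of 46 below 0), small subunit ones -0.074 (21 of 32 below 0) and other mRNAs with a TOP tract -0.062 (17 of 24 below 0). Here footprints carried the larger part, with medians of -0.091, -0.095 and -0.061 and with 38 of 46, 26 of 32 and 20 of 24 members below 0. RPL7A was at 2444 TPM in MT and 2879 TPM in EV, RPS2 at 944 TPM in MT and 1037 TPM in EV, and the elongation factor gene EEF1A1 at 2529 TPM in MT and 3001 TPM in EV. Initiation factors had a median of -0.060, elongation, termination and rescue factors -0.096 and ribosome biogenesis genes -0.064. In WT over EV the efficiency medians of these 6 groups were all below 0 too, from -0.24 to -0.026. In MT over WT they ran from -0.0029 to 0.20, so the position below 0 was not particular to MT. No gene of these 6 groups passed the 2-fold rule. The poly(A)-binding protein gene PABPC4, which passed at -1.07, is in none of them.

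No member of the remaining groups passed the rule. Glycolysis and pentose phosphate enzymes were at -0.10 with 16 of 21 below 0, and tRNA modification enzymes at 0.091 with 12 of 21 above 0. Messenger RNAs with upstream open reading frames under stress control had 7 of 14 members on each side of 0, S phase genes 21 of 42 and extracellular matrix genes 11 of 22. Endoplasmic reticulum chaperones (0.058), cholesterol and fatty acid synthesis (0.030), lysosome and V-ATPase (0.021), peroxisomal and fatty acid oxidation enzymes (-0.0073), immediate early genes (0.019), p53 targets (0.0051), NF-kappaB genes (-0.016), renal markers (-0.018), selenoproteins (-0.022), actin and tubulin genes (-0.037), SR proteins and hnRNPs (-0.044) and NRF2 targets (-0.069) lay nearer to 0. Replication-dependent histones had no member among 28 genes. The reference genes ACTB and GAPDH were at -0.31 and -0.17, and VHL and EPAS1 were below the minimum in Ribo-seq.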

How the data were processed

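RNA-seq and Ribo-seq of 786-O cells labelled MT and EV were used, with WT set beside them. One deposited table gave 1 column per library, matched to samples by column name. The header of the deposited table names no unit for RNA-seq, whose values were read as FPKM; TPM over a larger set of genes cannot be told apart. The deposited Ribo-seq columns are TPM, as each sums to 1000000. Per the labels' protocols, cycloheximide was added before lysis, RNase I made the footprints, and NEBNext kits made the libraries. The build in the submitters' processing notes is hg18; the sources used here name no aligner, counting step or annotation.

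Rows without a gene name (605, or 0.153% to 0.564% of a column) and 7 symbols with conflicting rows were left out. Ratios are log2 of (value + 1), which understates differences of low genes. Fold values between libraries are of the deposited values without the added 1. No count test, interval or p-value was possible with 1 library per label and assay and no counts. The members and the 37 gene lists were chosen with earlier results of these data known. Named genes were the 12 highest and 12 lowest, up to 6 per class and direction, the 6 abundant genes with the largest mRNA difference, 3 on each side of each limit, up to 4 past the rule or else 2 abundant members per list, and reference genes; others are marked, and a few genes are not reported here. The planned protein features were replaced by annotated starts. The procedure was run on simulated data with less spread than these libraries and planted changes larger than the 2-fold limit. That run checks the calculation and not the calls made here. Tools were Python 3.11.15, pandas 2.3.3, numpy 2.4.6 and matplotlib 3.10.9.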

Additional observations from a re-analysis of the deposited data

Results flagged for a closer look

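PHYHD1 lies outside the genes compared because its EV values were under the minimum, yet it gave a signal in MT above EV in both assays, with 109.5 FPKM in MT and 0.092 FPKM in EV, and 905 TPM in MT and 0 TPM in EV. In WT, PHYHD1 was at 117.6 FPKM and 221.7 TPM. A ratio of footprints to mRNA in EV cannot be formed from a footprint value of 0.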

How the results depend on the processing

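Counts depended most on the minimum. At 1, 5, 20 and 50 in place of 10, genes higher in MT numbered 170, 51, 7 and 3, and lower ones 99, 21, 3 and 0; with no minimum they were 296 and 170. Footprint-led genes higher in MT were then 99, 34, 3 and 1 (168 with no minimum) and lower ones 59, 15, 2 and 0 (105). mRNA-led genes higher in MT were 8, 5, 1 and 0 (17) and lower ones 5, 2, 1 and 0 (8). A pseudocount of 5 gave 11 higher genes, 7 of them footprint-led, and 17 of the 32 genes still passed. With the library labelled WT in place of EV, 28 genes were lower, of which 12 were footprint-led and 3 mRNA-led, and 11 of the 32 passed; PTCD3 (0.11), SMN2 (0.20), ATF2 (-0.16) and FGFR1 (-0.51) changed sign, and so did ZNF544 (-0.22), which was under the minimum in WT (9.94 FPKM) and is not among the genes compared there. Limits on each assay (mRNA past 0.5 and footprints within 0.25, log2) gave 21 mRNA-led genes higher and 7 lower. A limit of 1.5-fold, added after seeing the data, gave 137 higher (2.84%) and 81 lower (1.68%). A pseudocount of 0, centring and leaving out readthrough names kept all 32 genes past the rule, and rescaling RNA-seq kept 31. List medians kept their sign in 35 of 35 lists under pseudocounts of 0 and 5 and without readthrough names, and in 34 with centring. They kept it in 28, 31, 31 and 29 lists at a minimum of 1, 5, 20 and 50, and in 27 with no minimum. Rescaling RNA-seq kept the sign in 31 lists, and WT in place of EV in 21. The cause was not tested in any of these. No paired analysis was possible because each label has 1 library per assay. Depth is unknown, so differences of genes near the minimum cannot be set against counting error.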
